A study of Homo sapiens with 6 samples.

Results

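CPEB1, CPEB2, CPEB3 and CPEB4 are the 4 human genes for cytoplasmic polyadenylation element binding proteins, and all 4 were found by symbol among the 61806 genes listed. The genes were selected on a measured value, the p of CPEB2, which was the smallest in a fit to reads comparing the groups, so differences between the groups are given for these genes as a description, with no test. The libraries were made from MG63, an established human osteosarcoma cell line, and poly(A) RNA was sequenced. Stable FTO knockdown cells (shFTO, 3 replicates) were set against control cells (shNC, 3 replicates), and the design text calls the replicates independent. The labels give no treatment or time, do not say whether each line is 1 clone, and do not give the hairpin sequences.

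CPEB proteins bind a U-rich element, the cytoplasmic polyadenylation element, in the 3′ untranslated region of messenger RNAs and set the length of the poly(A) tail and the rate of translation. CPEB1 is the founding member, known from frog oocytes, where it holds maternal messages silent and then has their tails extended by the poly(A) polymerase TENT2 (GLD2). CPEB2, CPEB3 and CPEB4 form a closer group: CPEB2 binds the elongation factor eEF2 and slows translation of HIF1A mRNA, CPEB3 recruits deadenylation through TOB1, and CPEB4 acts on mRNAs of dividing, stressed and tumour cells. FTO removes the methyl group from N6-methyladenosine in mRNA, and the comparison asks which transcripts differ when it is depleted.

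The element is shown as it occurs nearest to the 3′ end of the CPEB2, CPEB4 and CPEB3 mRNAs themselves, because CPEB2 and CPEB4, the family members with many reads, carry it often. The letters searched were TTTTAT and TTTTAAT on the transcript strand, in the longest coding transcript of GENCODE release 29 (GRCh38), and capitals mark the element.
CPEB2: ttagtttaTTTTATtgttatcttccaggtg
CPEB4: ctTTTTATTTTTATcttttgtttttactgt
CPEB3: attgtatcTTTTATtacctgttctcttaga
These windows lie at chr4:15069985-15070014 (plus strand), chr5:173961560-173961589 (plus) and chr10:92046883-92046912 (minus). CPEB2 held 25 such elements in a 3′ untranslated region of 3773 bases, or 6.63 per kb, more per kb than in 99.1% of 15332 coding genes with a region of at least 300 bases. CPEB4 also held 25, in 5839 bases, or 4.28 per kb, above 94.9% of those genes. The searched letters are A and T only, and these regions held 30.7% GC in CPEB2 and 32.5% GC in CPEB4. The ranking over genes did not account for base composition. CPEB3 held 15 in 5520 bases (2.72 per kb) and CPEB1 held 2 in 1389 bases (1.44 per kb), with a median of 1.17 per kb over all those genes. Within the last 300 bases of the transcript CPEB2 had 5 elements, CPEB3 had 1, and CPEB4 and CPEB1 had 0. Over those 15332 genes 39.2% held at least 1 there, and 50.7% of the 633 that averaged 10 or more reads. These are matches of letters, and binding was not measured.

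The table held few reads, with 94083 to 106245 recovered reads in shFTO and 93629 to 100992 in shNC, and 7057 genes had a read in any library. Whether the table was made from all reads of the libraries is not given in the sources used here, so depth here means the depth of the table. FTO itself was listed at 0 FPKM in all 6 libraries, where up to 3 reads (1.32 to 1.5 FPKM) are compatible with a count of 0, so the knockdown could not be checked. Of 9 mesenchymal and bone markers 6 had reads, with COL1A1 at 139 and SPARC at 121 reads in all, and the osteoblast genes SPP1, BGLAP and ALPL at 0. Of 14 epithelial, blood cell and endothelial markers 3 had reads, 9 in all, of which the epithelial ones had 7 in shFTO and 1 in shNC, while EPCAM and CDH1 were at 0. Libraries differed from each other by 1.78 to 2.07 times the counting variance within groups and by 1.72 to 2.24 times between groups, so no library was a copy of another.

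CPEB2 was among the most abundant transcripts in the deposited table. CPEB2 (ENSG00000137449, chromosome 4, 15002481 to 15070153, plus strand) averaged 985 FPKM over the 6 libraries, rank 36 of all genes by FPKM, and rank 21 by reads with 4284 reads. CPEB4 (ENSG00000113742, chromosome 5, 173888349 to 173961980, plus strand) averaged 233 FPKM, rank 143, with 1441 reads. The housekeeping genes GAPDH and ACTB averaged only 61.5 and 29 FPKM, ranks 334 and 542, while EIF4G2 led the table at 10270 FPKM. A rank above GAPDH and ACTB therefore describes this table only. Whether levels in this table follow those in the cells was not tested. CPEB3 (ENSG00000107864, chromosome 10, 92046692 to 92291078, minus strand) had 7 reads and averaged 1.54 FPKM. CPEB1 (ENSG00000214575, chromosome 15, 82543201 to 82648861, minus strand) had 1 read in all 6 libraries. CPEB2 therefore held 74.7% and CPEB4 25.1% of the reads of the family.

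**Figure D1:**
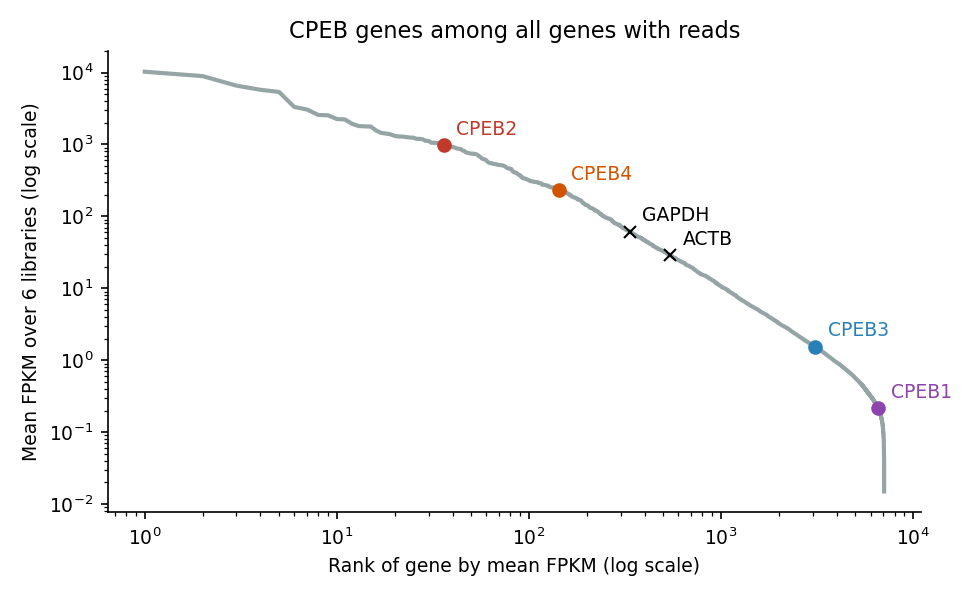
Mean FPKM over the 6 libraries (log scale) against the rank of each gene by mean FPKM (log scale), for the 7057 genes with reads. CPEB2 at rank 36 and CPEB4 at rank 143 lie above GAPDH and ACTB, which stand at ranks 334 and 542 of this table. CPEB3 lies at rank 3085 and CPEB1 at rank 6551.

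The order of the levels held in every library for CPEB2, CPEB4 and the remaining pair. CPEB2 was higher than CPEB4 in 6 of 6 libraries, by 752 ± 111 FPKM (SD, n = 6 libraries, both groups together), a ratio of the means of 4.23. CPEB4 was higher than CPEB3 in 6 of 6 libraries, by 231 ± 20.8 FPKM. Each of these had an exact two-sided sign-flip permutation p of 0.0312, the smallest that 6 libraries allow, and an adjusted p of 0.0375 over 6 pairs of genes. The fit that picked CPEB2 took only genes with 30 reads or more in total, so CPEB3 and CPEB1 could not have been picked. The order of CPEB2 over those 2 genes is therefore tied to the pick, and its p is no separate support. CPEB3 and CPEB1 did not differ beyond their spread, at 1.33 ± 1.48 FPKM with CPEB3 higher in 4 of 6 libraries (exact permutation p = 0.125, adjusted p = 0.125). With any 1 library left out, 5 libraries cannot give an adjusted p under 0.05. The ratio of CPEB2 to CPEB4 per length was 3.76, 4.69 and 4.16 in shFTO replicates 1, 2 and 3, and 4.09, 3.94 and 4.75 in shNC replicates 1, 2 and 3. The ratios of the groups overlapped.

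The promoters of CPEB2 and CPEB4 differed in base composition. The promoter sequences below, from RefSeq (GRCh38.p14), run from 250 bases before to 50 bases after the start of the abundant CPEB2 and CPEB4, with GC boxes (GGGCGG on either strand) in capitals, because GC content and GC boxes set these 2 abundant genes apart from each other.
CPEB2: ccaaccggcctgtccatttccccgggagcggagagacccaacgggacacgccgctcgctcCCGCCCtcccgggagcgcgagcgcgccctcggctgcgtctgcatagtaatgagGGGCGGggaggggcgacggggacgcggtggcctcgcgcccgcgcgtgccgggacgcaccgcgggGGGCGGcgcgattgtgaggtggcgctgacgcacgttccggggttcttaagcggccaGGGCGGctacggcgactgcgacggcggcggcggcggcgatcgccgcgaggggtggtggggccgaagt
CPEB4: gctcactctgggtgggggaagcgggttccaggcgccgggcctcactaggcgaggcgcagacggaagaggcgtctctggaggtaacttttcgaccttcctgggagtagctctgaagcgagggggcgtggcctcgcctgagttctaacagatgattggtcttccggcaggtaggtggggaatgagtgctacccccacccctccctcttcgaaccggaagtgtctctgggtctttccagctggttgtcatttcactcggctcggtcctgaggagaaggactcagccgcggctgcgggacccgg
The CPEB2 window (chr4:15002231-15002530, plus strand) held 51 CpG dinucleotides, more than 99% of 35116 promoters, at 76% GC and with 4 GC boxes. The CPEB4 window (chr5:173888099-173888398, plus strand) held 20 CpG dinucleotides, more than 58.8% of promoters, at 62.7% GC, with 0 GC boxes and 1 CCAAT box (CCAAT on either strand). A GC box was found in 45% and a CCAAT box in 34.6% of all promoters. A TATA box (TATAAA) and an E-box (CACGTG), found in 11.5% and 7.26% of promoters, were in neither window. The 5′-most window of the scarcely read CPEB3 (chr10:92291029-92291328, minus strand) also held 40 CpG dinucleotides, with 2 GC boxes. Of 4 windows of CPEB1, 3 held 40, 43 and 29 CpG dinucleotides with 3, 4 and 5 GC boxes, and the other held 5 with 0.

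Genes next to CPEB2 had no reads. Of 11 other genes within 500 kb of CPEB2, 0 had a read, and of 20 around CPEB4 1 had a read, BOD1 with 1. Of all 61806 genes listed 54749 had no read in any library, so neighbours without reads are no trait of these loci. Around CPEB3 6 of 28 genes had reads, led by IDE, the insulin-degrading protease gene, with 53. Around CPEB1 8 of 54 had reads, with 45 reads in all. Genes overlapping the family members in the deposited table were all at 0, among them C1QTNF7-AS1 on the strand opposite to CPEB2. No stretch of 50 bases was shared between the transcripts of any family members, and 0 stretches of CPEB2, CPEB3 or CPEB4 occurred in transcripts of another gene on the same strand. Of CPEB2's stretches, 1.29% lay antisense to another annotated transcript, and of CPEB1's 21.2% also lay in another gene, so the CPEB1 read is uncertain. The design text calls the libraries strand-specific, and the strand setting of the counting is not given in the sources used here.

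Both abundant members had lower mean levels in shFTO. CPEB2 stood at 902, 1007 and 828 FPKM in shFTO replicates 1, 2 and 3, against 1017, 969 and 1190 FPKM in shNC replicates 1, 2 and 3. The groups overlapped: shFTO replicate 2 lay above shNC replicate 2, and shNC replicate 3 was the highest library of all. These came from 706, 698 and 631 reads in shFTO and 707, 721 and 821 reads in shNC. The means were 912 ± 90 FPKM in shFTO and 1058 ± 116 FPKM in shNC (SD, n = 3 each), a ratio of 0.862. On the log2(FPKM + 1) scale CPEB2 was lower by a difference of -0.21 (limma SE 0.09) in shFTO. That SE is drawn towards the spread of other genes and is not the spread of CPEB2 alone. Without shNC replicate 3 the difference was -0.13, and over all leave-out settings it ran from -0.29 to -0.13. In bulk RNA, fewer cells with a transcript and less of it per cell cannot be told apart.

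**Figure D2:**
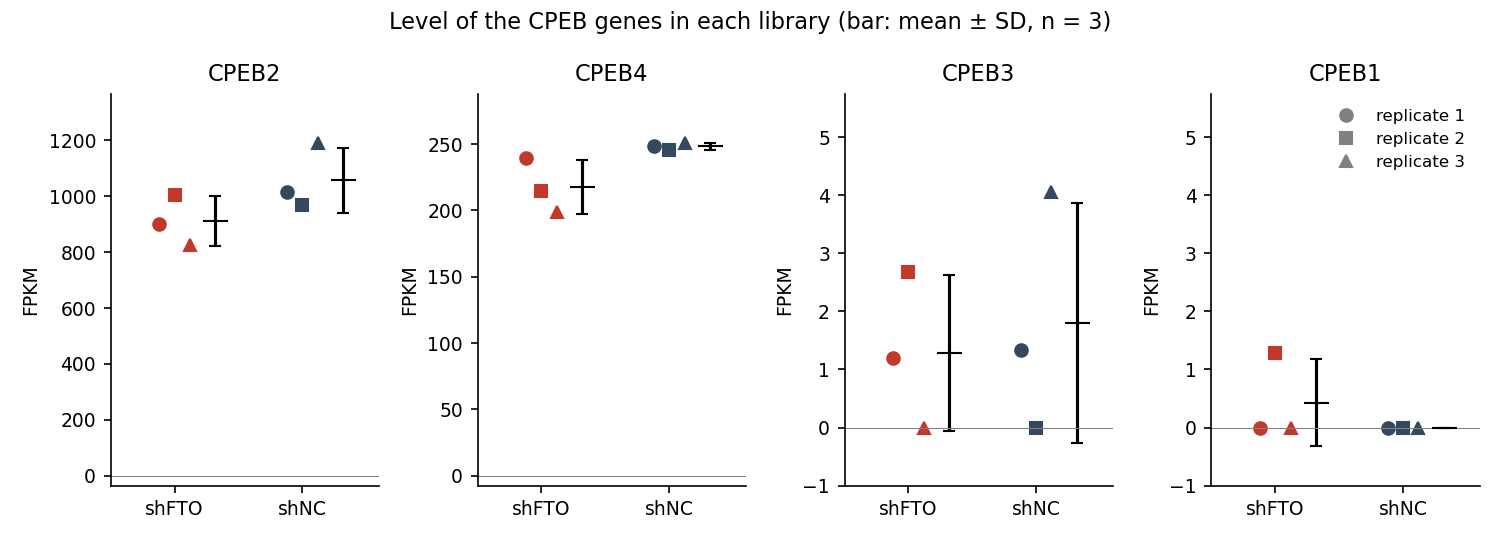
FPKM of CPEB2, CPEB4, CPEB3 and CPEB1 (1 panel each, with its own linear scale) in shFTO and shNC libraries; symbols mark replicates 1 to 3 and bars the mean ± SD (n = 3). CPEB2 overlaps between the groups, CPEB4 lies between 199 and 240 FPKM in shFTO and between 246 and 251 FPKM in shNC, and CPEB3 and CPEB1 stay under 5 FPKM.

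CPEB4 stood at 240, 215 and 199 FPKM in shFTO replicates 1, 2 and 3, against 249, 246 and 251 FPKM in shNC replicates 1, 2 and 3. The reads were 266, 211 and 215 in shFTO and 245, 259 and 245 in shNC. Every shFTO library was below every shNC library, with shFTO replicate 1 close under them. CPEB4 was the 1 member of 4 whose groups did not overlap, a separation with lower values in shFTO seen in 3.69% of the 4932 genes tested and in 3.33% of the 150 genes that averaged 100 reads or more. The means were 218 ± 20.5 FPKM in shFTO and 248 ± 2.52 FPKM in shNC (SD, n = 3 each), a ratio of 0.877, and the log2(FPKM + 1) difference was -0.19 (SE 0.16). Without shFTO replicate 3 it was -0.13. The exact 95% intervals of the read shares overlapped between groups: 250, with bounds of 221 and 282, of 100000 reads in shFTO replicate 1, against 256, with bounds of 226 and 290, in shNC replicate 2. Those intervals cover counting error only.

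CPEB3 had 1, 2 and 0 reads in shFTO replicates 1, 2 and 3, and 1, 0 and 3 reads in shNC replicates 1, 2 and 3. Its means were 1.29 ± 1.34 FPKM in shFTO and 1.8 ± 2.06 FPKM in shNC (SD, n = 3 each), and 3 reads would be 3.57 to 4.05 FPKM in a library. CPEB1 had its 1 read in shFTO replicate 2 and 0 in the other libraries. Over the 3 shNC libraries together, 0 reads of CPEB1 allow up to 1.26 FPKM. Of the 4 genes 3 passed the filter on low values, and CPEB1 did not. No difference of CPEB3 or CPEB1 between the groups was detectable at this depth.

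Beside the rest of the transcriptome, the differences of CPEB2 and CPEB4 were of similar size to each other and lay at the low side of the deeply read genes. Among those 150 genes, 3 had a lower log2(FPKM + 1) difference than CPEB2 and 5 a lower one than CPEB4. CPEB2 was picked for its p in this same contrast and these same libraries. Its place far from the median therefore follows from the pick and is only a description. The median absolute difference of those genes was 0.06, and they ran from -0.28 to 0.40. In the fit to reads that picked the set, CPEB2 had a log2 difference of -0.22 (SE 0.06). The gene next in order of p was TMED2, a cargo receptor gene, at -0.78 (SE 0.23) with 113 reads in shFTO and 184 in shNC. SEs of this fit are also drawn towards the spread of other genes. CPEB2 varied by 7.74 times the counting variance within groups, against a median of 1.93, so its SE understates its own spread.

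The spread of reads between libraries of a group, set against counting error, was wider for CPEB2 than for CPEB4. Within groups CPEB2 reads varied by 7.74 times the variance that counting alone gives, rank 4 of the same 150 genes, whose median was 1.93. The value was 6.44 in shFTO and 9.04 in shNC. CPEB4 varied by 1.07 times the counting variance, rank 116 of 150, with 2.12 in shFTO and 0.0261 in shNC, so its low value came from the shNC libraries.

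**Figure D3:**
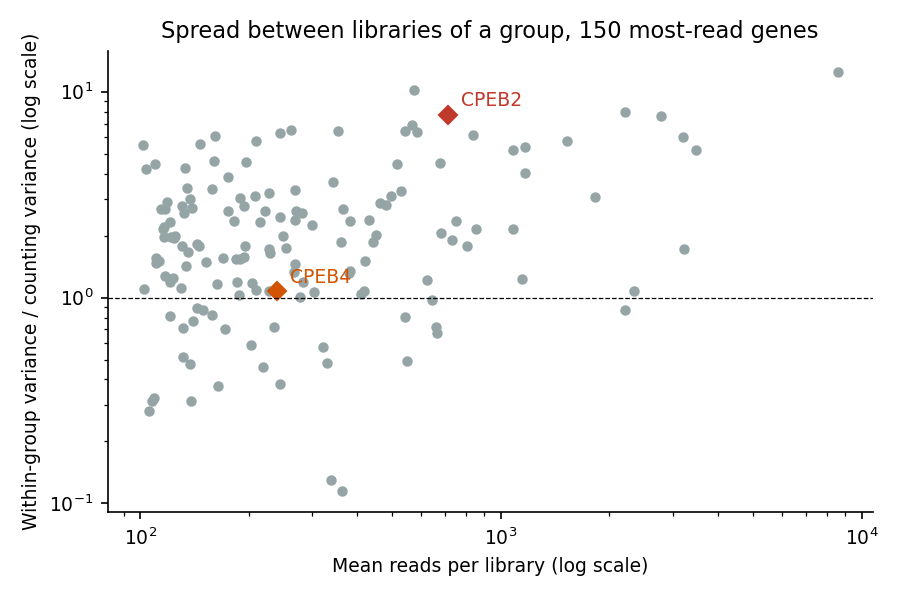
Variance of reads between libraries of a group divided by the counting variance (log scale) against mean reads per library (log scale), for the 150 genes averaging 100 or more reads; the dashed line at 1 marks counting error alone. CPEB2 lies at 7.74 and CPEB4 at 1.07.

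CPEB2 and CPEB4 shared part of their pattern over the libraries. Their log2(FPKM + 1) values had a Pearson r of 0.66 over 6 libraries, and CPEB4 ranked 49th of 704 genes, all averaging 10 or more reads, in likeness to CPEB2. The genes most like CPEB2 were QRICH1, a transcriptional regulator gene (r = 0.99), BIRC6, a ubiquitin ligase gene (r = 0.91), GSK3B, encoding a kinase of WNT and insulin signalling (r = 0.88), and MT-RNR2, the large mitochondrial ribosomal RNA (r = 0.86). QRICH1 had 38.9, 43.9 and 36.3 FPKM in shFTO replicates 1, 2 and 3, against 47.7, 42.7 and 56.1 FPKM in shNC replicates 1, 2 and 3. Its libraries stood in the same order as those of CPEB2. QRICH1 had only 22, 22 and 20 reads in shFTO replicates 1, 2 and 3, and 24, 23 and 28 reads in shNC. GSK3B had 18, 18 and 15 reads in shFTO and 17, 17 and 18 reads in shNC. At such counts a shared pattern and counting error were not told apart. The genes most like CPEB4 were KPNA3, an importin gene (r = 0.98), PKM, a pyruvate kinase gene (r = 0.95), CHD1, a chromatin remodeller gene (r = 0.93), and CBLL1, a subunit gene of the m6A writer complex (r = 0.93). KPNA3 had 84.7, 52.9 and 45.8 FPKM in shFTO replicates 1, 2 and 3, against 103, 96.2 and 91.1 FPKM in shNC replicates 1, 2 and 3. CBLL1 had only 19, 11 and 11 reads in shFTO replicates 1, 2 and 3, and 15, 20 and 18 reads in shNC. These correlations were the highest of 704 over 6 libraries that hold the group difference too, and are a description.

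**Figure D4:**
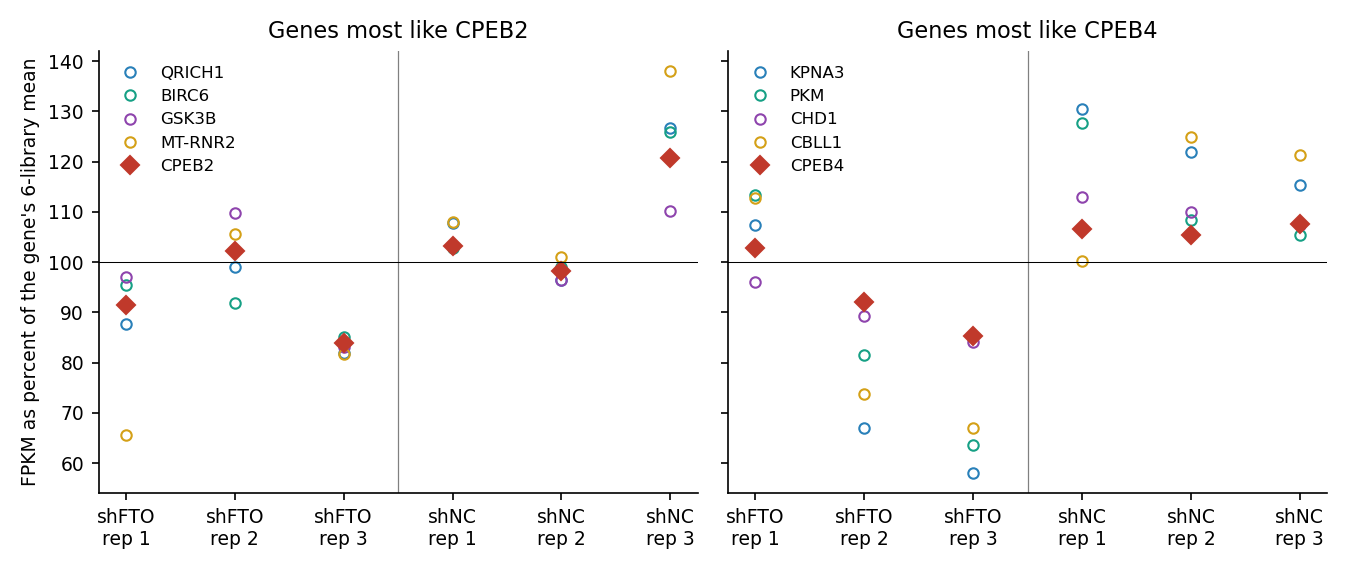
FPKM in each library as a percent of the gene's mean over the 6 libraries, for CPEB2 and CPEB4 (filled diamonds) and the 4 genes with the highest Pearson r to each (open circles); shFTO libraries lie left of the line and shNC libraries right of it. CPEB2 and its 4 genes are highest in shNC replicate 3, and CPEB4 and its 4 genes are lowest in shFTO replicate 3.

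Partners of the CPEB proteins were mostly read too thinly to compare. Over 4 lists of poly(A) tail genes and reported targets, reads were found for 58 of 66 genes, 19 averaged 10 or more, and 45 were tested. A gene with reads in 1 group only passed the filter through that group. The direction of such a gene is set by the filter, which limits the counts of higher and lower estimates below. In limma on log2(FPKM + 1), 0 of the 45 were called higher or lower at an adjusted p under 0.05, where 0.0406% of all 4932 genes tested were called. At an unadjusted p under 0.05 there was 1 of the 45, against 3.85% of all genes tested. On recovered reads limma-voom called 0 of the 45 and the quasi-Poisson fit 0 of the 21 it tested.

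Of 20 cytoplasmic polyadenylation partners 18 had reads and 12 were tested, with 3 estimates higher and 9 lower in shFTO and a median log2 difference of -0.14, against 0.00 for all genes tested. TENT2, the poly(A) polymerase that CPEB1 recruits in frog oocytes, had 2 reads in shFTO and 6 in shNC, and PARN, the deadenylase of the same complex, had too few to test. PUM2, which encodes an RNA-binding repressor that acts beside CPEB in frog oocytes, averaged 177 ± 19.1 FPKM in shFTO and 186 ± 26.3 FPKM in shNC (SD, n = 3 each). DDX6, a helicase of translationally silent particles, had 74 ± 17.7 FPKM in shFTO and 80 ± 11 FPKM in shNC. MSI2, a Musashi RNA-binding protein gene, had 23.4 ± 1.98 FPKM in shFTO and 21.9 ± 0.811 FPKM in shNC. CPSF3, the endonuclease of cleavage and polyadenylation, had 0 reads in shFTO and 3 in shNC, and passed the filter only through shNC. The adjusted p of all 12 was 0.772 or above in limma.

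In the deadenylation list, 18 of 20 genes had reads and 14 were tested, with 9 estimates higher and 5 lower and a median log2 difference of 0.08. BTG1, an adaptor that brings deadenylases to mRNA, was an abundant transcript, at 1231 ± 169 FPKM in shFTO and 1162 ± 151 FPKM in shNC (SD, n = 3 each; limma adjusted p = 0.822). CNOT2, a scaffold of the CCR4-NOT deadenylase, had 254 ± 29.4 FPKM in shFTO and 240 ± 21.7 FPKM in shNC. CNOT1 had 59.9 ± 5.24 FPKM in shFTO and 65.6 ± 7.85 FPKM in shNC, and CNOT4 had 53.7 ± 18.5 FPKM in shFTO and 47.1 ± 4.53 FPKM in shNC. TOB1, the adaptor through which CPEB3 recruits deadenylation, had 48.5, 46.4 and 88.2 FPKM in shFTO replicates 1, 2 and 3, against 84.1, 141 and 59.3 FPKM in shNC replicates 1, 2 and 3. Those groups overlapped, at a log2 difference of -0.60 (SE 0.32, limma adjusted p = 0.772). CNOT8, a catalytic deadenylase subunit, had 0 reads in shFTO and 4 in shNC, and passed the filter only through shNC.

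In the list of nuclear 3′ end processing 19 of 20 genes had reads and 15 were tested, with 6 estimates higher and 9 lower and a median log2 difference of -0.15. PAPOLA, the nuclear poly(A) polymerase, had 173 ± 17 FPKM in shFTO and 164 ± 11.5 FPKM in shNC (SD, n = 3 each). CSTF3, of the cleavage stimulation factor, had 127 ± 34.5 FPKM in shFTO and 112 ± 18.9 FPKM in shNC. CPSF6, which steers the choice of poly(A) site, had 70.4 ± 14 FPKM in shFTO and 79.7 ± 22.2 FPKM in shNC. PCF11, a termination factor, had 35.1 ± 7.28 FPKM in shFTO and 39.7 ± 1.91 FPKM in shNC. CLP1, an RNA kinase of the cleavage factors, had 0 reads in shFTO and 5 in shNC. It was the 1 gene of the 4 lists at an unadjusted p under 0.05 (limma adjusted p = 0.772). CLP1 passed the filter only through shNC, so its direction was fixed and that p is no support for a difference.

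Of 14 mRNAs reported as targets of CPEB proteins 10 had reads and 7 were tested, with 4 estimates higher and 3 lower and a median log2 difference of 0.23. HIF1A, the hypoxia factor whose translation CPEB2 slows, had 20.1, 16.5 and 39.4 FPKM in shFTO replicates 1, 2 and 3, against 37, 50 and 29 FPKM in shNC replicates 1, 2 and 3. The groups overlapped and the log2 difference was -0.65 (SE 0.38, limma adjusted p = 0.772). TWIST1, a mesenchymal transcription factor gene whose translation CPEB2 represses in breast cells, had 56.6, 42.6 and 87.1 FPKM in shFTO, against 58.4, 69.4 and 32.1 FPKM in shNC, for replicates 1, 2 and 3. TJP1, encoding the tight junction protein ZO-1 and a CPEB1 target in mouse mammary cells, had 56.6, 49.8 and 69.2 FPKM in shFTO replicates 1, 2 and 3, against 44, 41.1 and 49.1 FPKM in shNC replicates 1, 2 and 3. Every shFTO value of TJP1 was above every shNC value, at a log2 difference of 0.37 (SE 0.29, limma adjusted p = 0.772). VEGFA, a CPEB4 target, had 15.6 ± 5.96 FPKM in shFTO and 15.5 ± 1.39 FPKM in shNC (SD, n = 3 each). These are mRNA levels, and translation and tail length were not measured.

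**Figure D5:**
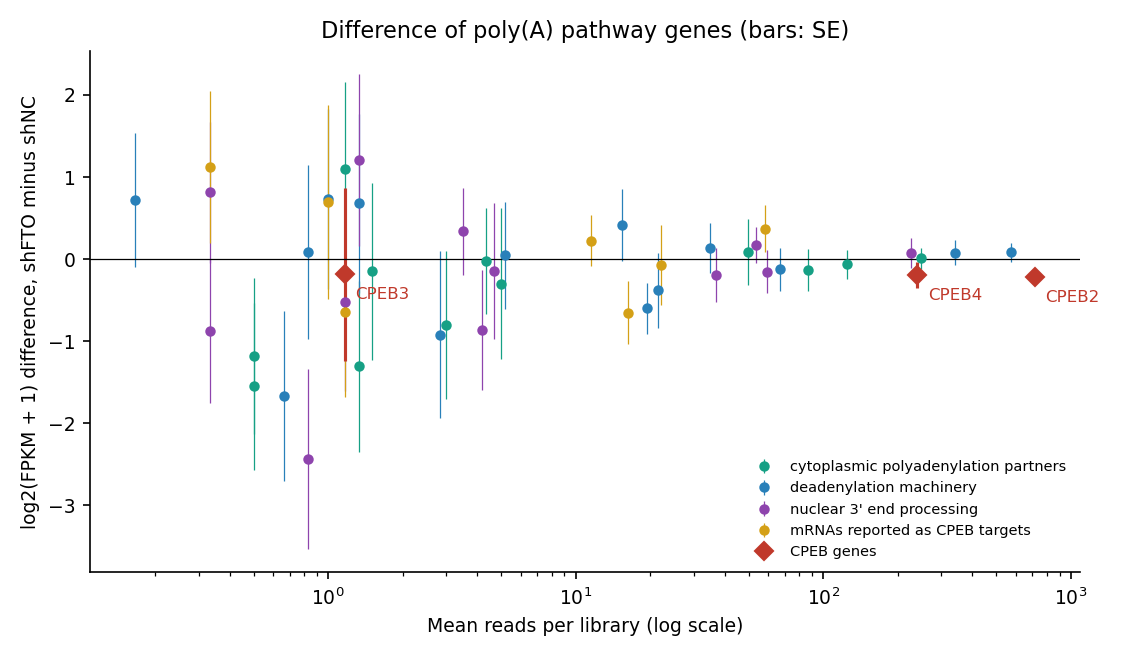
log2(FPKM + 1) difference of shFTO minus shNC (bars: SE of limma) against mean reads per library (log scale), for the 45 tested genes of the 4 lists, coloured by the first list each is in, and for CPEB2, CPEB3 and CPEB4 (diamonds). Genes with few reads spread widest and have wide SE, with CLP1, which passed the filter only through shNC, lowest at -2.43.

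Over the 4 lists the groups did not overlap in FPKM for 2 genes with lower values and 1 with higher values in shFTO, against 3.69% lower and 2.9% higher of all genes tested. The higher one was TJP1, and the lower ones, named after their values were seen, were TENT4B and CNOT7. TENT4B, a non-canonical poly(A) polymerase gene, had 2 reads in each shFTO library, against 5, 4 and 3 reads in shNC replicates 1, 2 and 3. CNOT7, the catalytic deadenylase subunit, had 3, 0 and 3 reads in shFTO replicates 1, 2 and 3, against 4, 3 and 4 reads in shNC replicates 1, 2 and 3. The reads of CNOT7 thus tied at 3 across the groups. Its groups were apart only in FPKM, at 2.65 in shFTO replicate 3 against 2.72 in shNC replicate 2. In limma both had an adjusted p of 0.772.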

How the data were processed

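The deposited table holds FPKM, which the authors rounded to 2 decimals, beside each gene's exonic length and position. The submitters' processing notes name HISAT2 2.2.1, FastQC 0.10.1, StringTie 1.3.3b, HTSeq 0.6.1 and DESeq2 1.50.2, and the build GRCh38. Since FPKM is relative to the library total, a change in the most abundant genes shifts the rest. Columns were matched to replicates by title.

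Whole reads were recovered by trying library totals from 20000 to 200000 until FPKM multiplied by length came out whole, which it did for 100% of values above 0 (tolerance 0.05 read). Groups were compared with limma 3.58.1 (R 4.3.3; trend, robust) on log2(FPKM + 1), a scale that understates changes of low genes, over 4932 genes averaging 1 FPKM or more in either group, with Benjamini-Hochberg adjustment. Levels of the CPEB genes were compared by exact sign-flip permutation (SciPy 1.17.1, Python 3.11.15). The fits were tested on simulated data, in which limma called few of the genes changed by 2-fold, so a lack of calls does not show a lack of change. Only genes of moderate depth were changed there, so the outcome does not cover the deeply read genes. The simulated spread between libraries was also set below the median spread of the real reads. In the simulated data the share of limma and limma-voom calls that fell on unchanged genes was above the nominal share.

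The members and lists were chosen with earlier results of these data known. Genes were named by rule: up to 4 per list with the most reads and up to 2 with the smallest p, the 4 most like CPEB2 and like CPEB4, and genes with reads within 500 kb of a member. Some items that the rule names are not reported here. Alternatives were median-of-ratios scaling, all genes with reads, genes averaging 10 reads or more, 0.1 as the pseudocount, limma-voom and a quasi-Poisson fit (30 reads or more in total) on recovered reads, a replicate block, and each library left out.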

Additional observations from a re-analysis of the deposited data

How the results depend on the processing

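The count of genes called over the whole table was 2 and moved with the setting: 7 with a pseudocount of 0.1, 9 with no filter, 0 with a mean of 10 reads or more, 11 in limma-voom, 0 in the quasi-Poisson fit, and 2 to 9 with each library left out (8 without shFTO replicate 1, 9 without shNC replicate 2, 7 without shNC replicate 3). The cause was not tested. With a replicate block the count was 17. Deviations of same-numbered libraries had correlations of -0.00292, 0.0392 and -0.0116, and 1 of 3 shFTO libraries correlated best with its own number. At this depth such correlations cannot exclude a shared batch, and the labels do not say whether same-numbered libraries share one. The count of called genes in the 4 lists was 0 in all these settings. The differences of CPEB2 and CPEB4 moved by less than 1 SD of replicates under each of 13 alternatives. That SD is a large part of either difference, so the criterion is lenient. The settings with no filter, with 10 reads or more and with a replicate block cannot change these estimates. Without 1 library the differences ran from -0.287 to -0.127 for CPEB2 and from -0.263 to -0.129 for CPEB4. The CPEB4 alternatives were chosen after seeing the data. With 5 libraries the exact test of the order of levels cannot pass: adjusted p rose to 0.075 for CPEB2 minus CPEB4 (715 to 777 FPKM), CPEB2 minus CPEB3 (943 to 1015), CPEB2 minus CPEB1 (944 to 1016), CPEB4 minus CPEB3 (228 to 238) and CPEB4 minus CPEB1 (229 to 240 FPKM). On the log2 scale the order kept its calls, which is no separate check, since that scale cannot change which gene is higher in a library. At 93629 to 106245 reads per library, CPEB1, CPEB3 and most partner genes had too few reads for a difference to be seen.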
